A study of Mus musculus with 14 samples.

Results

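The cyclin-dependent kinase (CDK) inhibitors of the mouse are encoded by 7 genes in 2 families. All 7 were followed here across mouse embryonic fibroblasts (MEFs) labelled as Tip60 knockout (KO) and their controls. The INK4 genes are Cdkn2a, Cdkn2b, Cdkn2c and Cdkn2d, and the CIP/KIP genes are Cdkn1a, Cdkn1b and Cdkn1c. The genes were listed by symbol and looked up through their Entrez identifiers, and 7 of 7 were found among the 26270 identifiers of the count files. Each of them also passed the filter on low counts, which left 14327 genes for testing. MEFs are primary fibroblast cultures, here from E13.5 embryos and grown in 3% oxygen. Tip60 is a histone acetyltransferase encoded by Kat5, and its deletion was induced with 250 nM 4-hydroxytamoxifen (4-OHT). RNA-seq counts were deposited for 14 libraries: KO (Tip60-/-) after 5 days (n = 4), control (Tip60+/+) after 5 days (n = 4), KO after 3 days (n = 3) and control after 3 days (n = 3). The treatment text is shared by the labels of all 14 samples, which do not say separately whether control cultures were given the drug, and the sources used here do not give the Cre allele or the excised exons.

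The libraries came from 8 embryos, 4 KO and 4 control, and most embryos gave cultures at both days. Replicates 1 and 2 of the day 3 controls carry the same embryo identifier, so they are not independent animals, and p-values describe the spread between these cultures. The leading numbers of the embryo identifiers differ between KO and control and are read here as different litters. The litter labels 1 and 2 themselves occur in both genotypes. Genotype therefore cannot be told apart from litter. The sexes are unequal too, as 5 of the 7 KO libraries but 1 of the 7 control libraries are male. Total counts ran from 2187168 in KO day 3 replicate 3 to 39203154 in KO day 3 replicate 2. Kat5 was used to check the labels. At day 5 it lay at 17.3 to 19.9 counts per 1000000 (CPM) in KO and 29.8 to 32.1 CPM in control libraries. At day 3 it lay at 18.3 to 21.1 CPM in KO and 31.5 to 32.3 CPM in control libraries. The fitted KO level was 0.596 times that of control at day 5 and 0.623 times at day 3, so much Kat5 mRNA remained. How complete the deletion was cannot be read from these counts, and Tip60 protein was not measured. One control library stood apart from its group, day 5 replicate 4, the male of a separate litter. On the first principal component (53.05% of the variance) it lay at 0.07 while the other day 5 controls lay at 33.0 to 39.7. The day 5 KO libraries lay at -58.9 to -44.8, so this control was displaced toward them. The fibroblast markers were all detected in every group, and of the blood and liver markers none passed the filter. Summed fibroblast levels at day 5 were 31583 to 36616 CPM in KO and 32410 to 48788 CPM in control. At day 3 they were 45721 to 56147 CPM in KO and 31157 to 36313 CPM in control, without overlap. By edgeR's quasi-likelihood test 3 of 11 were higher and 4 lower in KO at day 5, and 5 were higher and 0 lower at day 3. Cartilage markers differed between KO and control libraries, though their summed levels overlapped at day 5. Of 12 tested, 9 were higher in KO at day 5 and 10 at day 3 (edgeR's quasi-likelihood test, Benjamini-Hochberg adjusted), none was lower, and their summed level was 1988 to 4156 CPM in KO against 202 to 2704 CPM in control at day 5, and 2411 to 2831 CPM in KO against 89.5 to 189 CPM in control at day 3. Over all genes 26.3% were higher and 26.2% lower at day 5, while 24.6% were higher and 26.2% lower at day 3. Skeletal muscle markers had 4 of 5 higher and 0 lower at day 3, and 2 higher and 1 lower at day 5. The summed level of the 8 muscle markers listed overlapped at day 3, at 245 to 445 CPM in KO and 217 to 439 CPM in control. At day 5 it was 192 to 290 CPM in KO and 351 to 424 CPM in control. Macrophage markers had 0 of 8 higher and 5 lower at day 3, and 1 higher and 1 lower at day 5. The neural and glial, endothelium, epithelium and adipocyte lists had at most 2 members called in a direction. The part of these cell types in the results on the inhibitors was not tested, and in bulk RNA fewer cells of a type cannot be told apart from less RNA per cell.

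INK4 proteins bind the kinases Cdk4 and Cdk6 and keep D-type cyclins from activating them, which leaves the retinoblastoma family proteins unphosphorylated and E2F factors restrained. CIP/KIP proteins bind whole cyclin-CDK complexes, above all those of Cdk2. In cultured MEFs the Cdkn2a locus is known for the culture-induced arrest of these cells, through p19Arf, which stabilises p53, and p16Ink4a, an INK4 protein, and Cdkn1a is the best known transcriptional target of p53. Tip60 has been described as a cofactor that acetylates p53.

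At day 5 the comparison of KO with control gave calls in opposite directions inside both families. At day 3 this held only for the CIP/KIP genes, while 2 INK4 genes were called higher and 0 lower. Cdkn2b and Cdkn2c, and by a smaller and less stable margin Cdkn1b, were higher in KO cells at both days. Cdkn1a was lower at both days, and Cdkn2a and Cdkn2d were lower at day 5. Cdkn1c was not called between genotypes but fell steeply between the days in KO and in control cells. With a call at an adjusted p below 0.05, 3 members were higher and 3 lower in KO at day 5, where 52.5% of all 14327 genes were called (26.3% higher and 26.2% lower), and 3 were higher and 1 lower at day 3, where 50.9% were called (24.6% higher and 26.2% lower). A count of 4 in 7 at day 3 is near that background, and 7 genes are few to set against it at day 5. The median log2 fold change of the 7 was 0.01 at day 5 and 0.14 at day 3, against 0.02 at day 5 and -0.004 at day 3 over all genes tested.

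**Figure D1:**
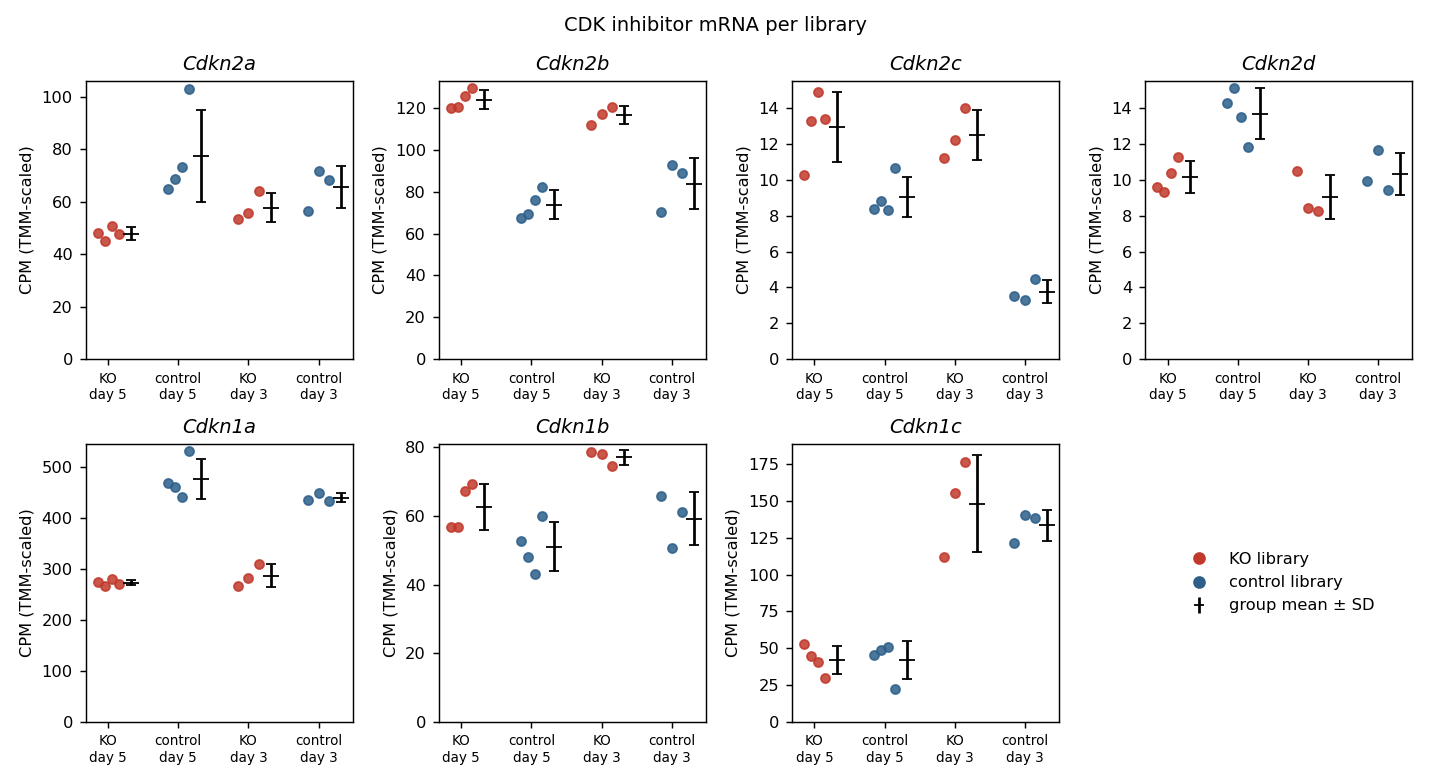
Level of each CDK inhibitor in every library, in CPM on TMM-scaled library sizes, by group (KO red, control blue), with the group mean and SD in black. Cdkn1a and Cdkn2b separate KO from control libraries at both days, Cdkn2c is lowest in the day 3 controls, and Cdkn1c separates the days and not the genotypes.

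**Figure D2:**
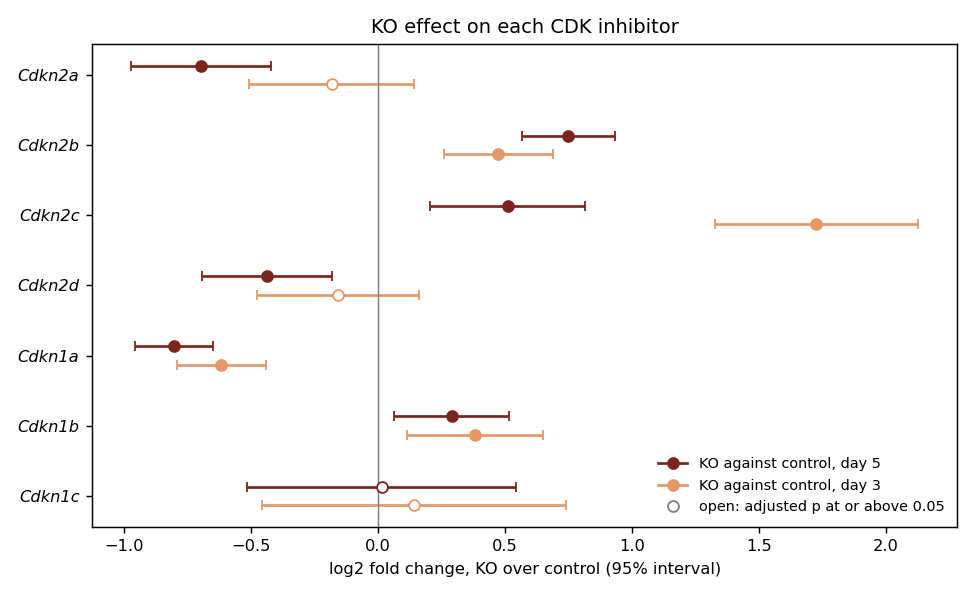
Log2 fold change of KO over control for each inhibitor at day 5 (dark) and day 3 (light), with 95% intervals from edgeR's quasi-likelihood fit; open points had an adjusted p at or above 0.05. Cdkn2b, Cdkn2c and Cdkn1b lie right of 0 at both days and Cdkn1a left of it, while the interval of Cdkn1c spans 0 at both days.

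Levels of different genes can be compared only per length, as transcripts per 1000000 (TPM). On that scale Cdkn1a was the most abundant inhibitor in each of the 4 groups, at 393 ± 8.22 TPM in KO and 632 ± 39.5 TPM in control at day 5 (SD, n = 4 each) and 391 ± 23.2 TPM in KO and 565 ± 6.79 TPM in control at day 3 (n = 3 each). In KO at day 5 the others followed as Cdkn2b at 260 TPM, Cdkn2a at 123 TPM, Cdkn1b at 75.9 TPM, Cdkn1c at 63.4 TPM, Cdkn2c at 34.2 TPM and Cdkn2d at 23.3 TPM. In control at day 5 the order was Cdkn2a at 183 TPM, Cdkn2b at 143 TPM, Cdkn1c at 58.4 TPM, Cdkn1b at 57.1 TPM, Cdkn2d at 29.1 TPM and Cdkn2c at 22.0 TPM. Thus Cdkn2b ranked above Cdkn2a in KO and below it in control, and the libraries of these neighbours did not overlap in either group. Cdkn1b and Cdkn1c overlapped in both day 5 groups, as did Cdkn2d and Cdkn2c in control, so their order is not resolved.

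At day 3 the levels in KO were 232 TPM for Cdkn2b, 211 TPM for Cdkn1c, 141 TPM for Cdkn2a, 88.8 TPM for Cdkn1b, 31.2 TPM for Cdkn2c and 19.8 TPM for Cdkn2d. In control they were 179 TPM for Cdkn1c, 157 TPM for Cdkn2b, 150 TPM for Cdkn2a, 64.2 TPM for Cdkn1b, 21.2 TPM for Cdkn2d and 8.88 TPM for Cdkn2c. Cdkn2b and Cdkn1c overlapped in both day 3 groups, and Cdkn2b and Cdkn2a did in control, while Cdkn2c stood above Cdkn2d in KO and below it in control without overlap of the libraries.

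The make-up of the summed mRNA of the 7 inhibitor genes differed between the genotypes at both days. The 7 genes summed to 973 ± 13.3 TPM in KO and 1125 ± 66.3 TPM in control at day 5 (SD, n = 4 each), and to 1115 ± 79.8 TPM in KO and 1145 ± 54.0 TPM in control at day 3 (n = 3 each). The INK4 genes made up 45.3% ± 1.21 of that sum in KO and 33.5% ± 2.26 in control at day 5, and 38.1% ± 1.37 in KO and 29.4% ± 2.32 in control at day 3. Every KO library had a larger INK4 share than every control library of its day. The Cdkn2a part was 12.6% of the sum in KO and 16.2% in control at day 5, and 12.6% and 13.1% at day 3. It includes p19Arf transcripts, which encode no INK4 protein and cannot be separated. The sum and the INK4 share are therefore those of genes and not of inhibitor transcripts alone. The share of Cdkn2b was 26.8% in KO and 12.7% in control at day 5, and 20.9% in KO and 13.7% in control at day 3. Cdkn1a gave 40.4% in KO and 56.2% in control at day 5, and 35.1% in KO and 49.4% in control at day 3.

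**Figure D3:**
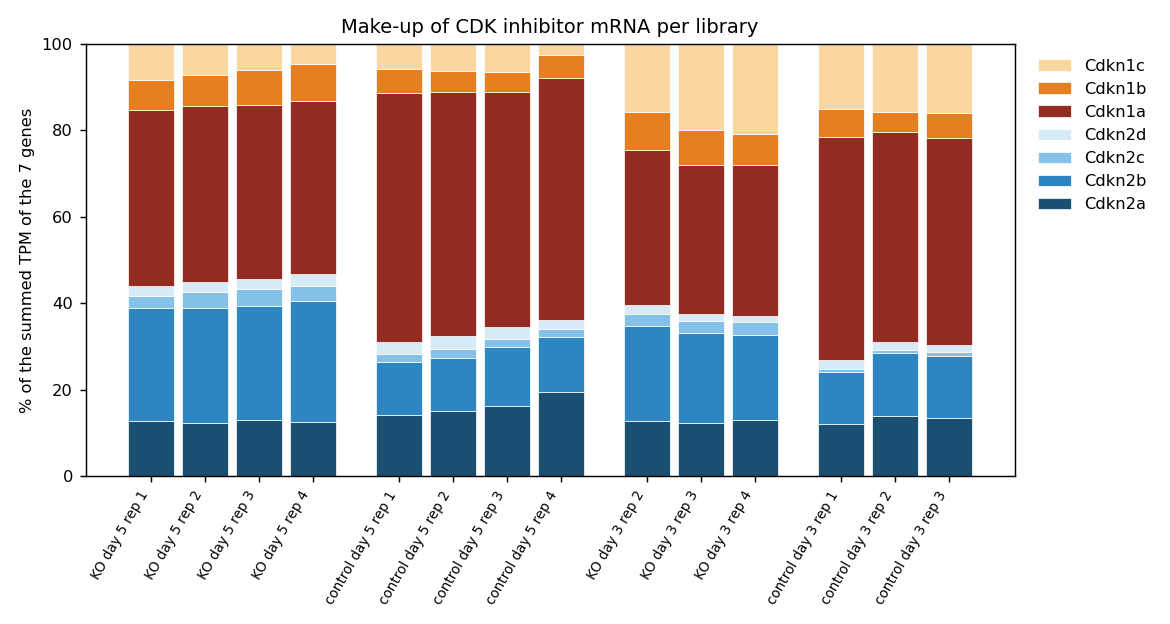
Share of each inhibitor in the summed TPM of the 7 genes, in percent, for each library (INK4 genes in blue at the bottom, CIP/KIP genes in red and orange above). The blue part reaches 43.9% to 46.7% in KO and 31.0% to 36.1% in control at day 5, and 37.1% to 39.7% in KO and 26.7% to 31.1% in control at day 3. It includes the p19Arf transcripts of Cdkn2a.

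Cdkn2b encodes p15Ink4b, an inhibitor of Cdk4 and Cdk6 that TGF-beta induces in human epithelial cells. It lies on mm10 chromosome 4 (89306289 to 89311032, minus strand), next to Cdkn2a. It had 120, 120, 126 and 130 CPM in KO at day 5, against 67.5, 69.5, 76.1 and 82.5 CPM in control, and 112, 117 and 121 CPM in KO at day 3, against 70.2, 92.8 and 88.9 CPM in control. All KO libraries lay above all control libraries of their day, and the lowest control was replicate 1 at each day. The log2 fold change was 0.75 ± 0.0858 (SE) at day 5 (adjusted p = 7.92e-06, edgeR's quasi-likelihood test, Benjamini-Hochberg adjusted; exact two-sided permutation p = 0.0286, the lowest possible with 70 labelings). At day 3 it was 0.47 ± 0.1004 (adjusted p = 0.00137; exact permutation p = 0.1, the lowest possible with 20 labelings). The groups did not overlap in CPM for 4 members at each day, against 47.4% of all genes at day 5 and 57.8% at day 3. A long noncoding gene, Gm12610, spans Cdkn2b in the annotation and had no line in the count files. The sources used here give no strand setting for the counting, so any reads from it cannot be told apart from those of Cdkn2b.

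Cdkn2a gives rise to 2 unrelated proteins from separate first exons that share the following exons: p16Ink4a, which binds Cdk4 and Cdk6, and p19Arf, which binds Mdm2. The count files hold 1 count for the gene (chromosome 4, 89274473 to 89294619, minus strand), which cannot separate them. Cdkn2a had 47.9, 44.9, 50.8 and 47.7 CPM in KO at day 5, against 64.8, 68.8, 73.3 and 103 CPM in control. Every KO library lay below every control library, and the highest value was that of control replicate 4, the library that stood apart. The log2 fold change was -0.70 ± 0.128 (adjusted p = 0.000459, edgeR's quasi-likelihood test; exact permutation p = 0.0286 of 70 labelings), and -0.52 without that library, still called. At day 3 Cdkn2a had 53.4, 55.9 and 64.0 CPM in KO, against 56.5, 71.8 and 68.2 CPM in control, and the groups overlapped (-0.18 ± 0.152, adjusted p = 0.333, 95% interval -0.51 to 0.14). With sex as a covariate the day 3 difference was called (-0.37, adjusted p = 0.0251). The KO effect at day 5 minus that at day 3 was -0.51 ± 0.198 (adjusted p = 0.0980), and it was called with sex as a covariate (-0.46, adjusted p = 0.0452).

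Cdkn2a and Cdkn2b lie 31816 bases apart by gene start. At day 5 they moved in opposite directions in KO, lower for Cdkn2a and higher for Cdkn2b. Mtap, the tested gene on the other side of Cdkn2a and an enzyme of methionine salvage, was at -0.40 at day 5 (adjusted p = 0.000429) and 0.18 at day 3 (adjusted p = 0.0971). Dmrta1, the tested gene on the other side of Cdkn2b and 381909 bases from it by gene start, was called higher in KO at day 5 (adjusted p = 8.12e-05) and at day 3 (adjusted p = 0.0193), the direction of Cdkn2b. Its counts were low, at 31, 16, 21 and 16 in KO and 1, 0, 0 and 0 in control at day 5, and at 42, 0 and 7 in KO and 3, 0 and 3 in control at day 3, so its fitted fold change is not given.

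The promoters of both genes are shown because the pair lies side by side and changed in opposite directions. RefSeq (GRCm38.p6, the assembly of mm10) gives 2 starts for Cdkn2a, that of p19Arf upstream and that of p16Ink4a downstream, and 1 for Cdkn2b. Each sequence runs 5′ to 3′ on the gene's strand, from 250 bases before the start to 50 bases from the start on. Capitals mark matches on either strand to E2F sites (TTTCCCGC, TTTCGCGC, TTTGCCGC or TTTGGCGC), the GC box GGGCGG, the CCAAT box CCAAT, the E-box CACGTG and the p53 half-site.
Cdkn2a upstream start, p19Arf, chr4:89294570-89294869, minus strand: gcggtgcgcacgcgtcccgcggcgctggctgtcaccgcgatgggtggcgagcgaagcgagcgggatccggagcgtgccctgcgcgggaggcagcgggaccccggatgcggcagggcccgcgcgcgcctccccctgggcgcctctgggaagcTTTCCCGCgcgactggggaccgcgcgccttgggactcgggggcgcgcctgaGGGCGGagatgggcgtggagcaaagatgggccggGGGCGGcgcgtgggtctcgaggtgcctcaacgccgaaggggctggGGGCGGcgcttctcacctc
Cdkn2a downstream start, p16Ink4a, chr4:89282143-89282442, minus strand: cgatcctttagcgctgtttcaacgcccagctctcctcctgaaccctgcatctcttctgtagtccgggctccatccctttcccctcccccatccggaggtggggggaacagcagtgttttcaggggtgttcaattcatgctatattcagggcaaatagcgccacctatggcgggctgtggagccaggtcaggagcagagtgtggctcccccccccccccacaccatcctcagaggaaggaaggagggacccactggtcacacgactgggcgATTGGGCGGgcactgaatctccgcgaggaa
Cdkn2b, chr4:89310983-89311282, minus strand: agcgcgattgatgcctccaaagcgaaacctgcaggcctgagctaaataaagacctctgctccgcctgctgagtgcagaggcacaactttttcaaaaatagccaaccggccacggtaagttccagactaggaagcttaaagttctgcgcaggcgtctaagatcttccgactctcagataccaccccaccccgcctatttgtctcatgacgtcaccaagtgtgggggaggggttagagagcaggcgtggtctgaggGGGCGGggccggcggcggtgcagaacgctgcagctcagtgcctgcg
The upstream Cdkn2a window held 1 E2F match, at 99 bases before the start, and 3 GC boxes, while the downstream window held a CCAAT box and a GC box that overlap. The Cdkn2b window held 1 GC box. Of 32851 promoters of the same length in the table, 2.26% held an E2F match, 35.7% a GC box, 37.4% a CCAAT box, 7.15% an E-box and 8.36% a p53 half-site. Searches for the TATA box TATAAA, the FOXO site GTAAACA and the AP-1 site TGANTCA found no match in the promoters of the 6 members in the table.

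Cdkn2c encodes p18Ink4c, an INK4 protein with a known part in the exit from the cell cycle during differentiation. It showed the largest KO effect among the 7 genes, at day 3. It had 11.2, 12.2 and 14.0 CPM in KO at day 3, against 3.54, 3.27 and 4.48 CPM in control, a log2 fold change of 1.73 ± 0.187 or 3.31-fold (95% interval 2.50 to 4.36; adjusted p = 6.01e-06, edgeR's quasi-likelihood test; exact permutation p = 0.1, the lowest possible with 20 labelings). At day 5 it had 10.2, 13.3, 14.9 and 13.4 CPM in KO, against 8.37, 8.82, 8.31 and 10.7 CPM in control. The day 5 groups overlapped by 1 pair of libraries, KO replicate 1 and control replicate 4, and the log2 fold change was 0.51 ± 0.143 (adjusted p = 0.00799; exact permutation p = 0.0571 of 70 labelings). These values rest on 26 to 426 counts per library.

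The difference between the KO effects on Cdkn2c was itself called: the effect was smaller at day 5 than at day 3 by 1.21 on the log2 scale (-1.21 ± 0.235, adjusted p = 0.00419). It was the only member called in this test, in which 14.3% of all genes were called (7.16% higher and 7.15% lower). The control cells changed between the days and the KO cells were not seen to: Cdkn2c was 1.27 ± 0.176 higher at day 5 than at day 3 in control (adjusted p = 6.28e-05), and differed by 0.06 ± 0.158 in KO (adjusted p = 0.888, 95% interval -0.28 to 0.39). Both KO comparisons share their KO or control libraries with the comparisons of days.

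Among male libraries alone the day 5 difference was 0.25, with 3 KO libraries against the single male control, replicate 4, so that this value has no spread among controls behind it. The gene lies on chromosome 4 (109660876 to 109666756, minus strand), away from Cdkn2a and Cdkn2b. Its neighbours went in opposite directions. The nearer, 9630013D21Rik (8449 bases between gene starts), was called higher in KO at day 5 (2.83, adjusted p = 0.000278) and was not called at day 3 (1.88, adjusted p = 0.0813), on counts of 16, 12, 25 and 20 in KO and 2, 2, 1 and 2 in control at day 5. Faf1 (15751 bases), an adaptor protein bound to Fas, was lower in KO at both days (-0.62, adjusted p = 0.000129, at day 5 and -0.45, adjusted p = 0.00498, at day 3). The promoter at its upstream start is shown as that of the member with the largest effect, with capitals as above.
Cdkn2c upstream start, chr4:109666707-109667006, minus strand: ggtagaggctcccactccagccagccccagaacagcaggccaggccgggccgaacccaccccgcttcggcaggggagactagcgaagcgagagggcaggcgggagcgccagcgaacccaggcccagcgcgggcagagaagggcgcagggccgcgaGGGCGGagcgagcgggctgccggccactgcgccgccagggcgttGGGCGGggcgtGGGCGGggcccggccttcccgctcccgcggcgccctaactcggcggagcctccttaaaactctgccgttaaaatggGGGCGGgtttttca
It held 4 GC boxes and none of the other motifs. The window at the downstream start held a CCAAT box and an E-box.

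Cdkn2d encodes p19Ink4d, the remaining INK4 protein (chromosome 9, 21288459 to 21291421, minus strand), which is distinct from p19Arf. It had 9.58, 9.31, 10.4 and 11.3 CPM in KO at day 5, against 14.3, 15.2, 13.53 and 11.9 CPM in control, so that the groups did not overlap but their nearest libraries were close. The log2 fold change was -0.44 ± 0.119 (adjusted p = 0.00689, edgeR's quasi-likelihood test; exact permutation p = 0.0286 of 70 labelings), and it was -0.20 among the male libraries, a value that rests on 3 KO libraries and on control replicate 4 alone. At day 3 it had 10.5, 8.45 and 8.25 CPM in KO, against 9.93, 11.7 and 9.43 CPM in control, with overlap (-0.16 ± 0.148, 95% interval -0.48 to 0.16). The adjusted p there was 0.565, set by edgeR's Poisson bound, without which the unadjusted p was 0.305. The lowest count behind these values was 18, in KO day 3 replicate 3. Its neighbour Kri1, a gene of ribosome biogenesis, was lower in KO at both days (-0.39, adjusted p = 0.00303, at day 5 and -0.94, adjusted p = 1.30e-05, at day 3), and Slc44a2 on the other side was lower at day 3 (-0.34, adjusted p = 0.0165) and not called at day 5 (-0.18, adjusted p = 0.110).

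Cdkn1a encodes p21, the CIP/KIP protein through which p53 arrests cells in G1. It lies on chromosome 17 (29090979 to 29100722, plus strand). It had 273, 266, 279 and 271 CPM in KO at day 5, against 468, 461, 440 and 532 CPM in control. At day 3 it had 267, 282 and 310 CPM in KO, against 435, 449 and 434 CPM in control. No KO library came near a control library at either day. The log2 fold change was -0.80 ± 0.0710 at day 5 (adjusted p = 9.18e-07, edgeR's quasi-likelihood test; exact permutation p = 0.0286 of 70 labelings) and -0.62 ± 0.0824 at day 3 (adjusted p = 3.48e-05; exact permutation p = 0.1 of 20 labelings), or 0.573 times the control level at day 5 and 0.652 times at day 3. The difference between these effects was not called (-0.19 ± 0.108, adjusted p = 0.272, 95% interval -0.42 to 0.05). Its tested neighbours were not called between genotypes: Trp53cor1, the noncoding gene also known as lincRNA-p21, was at 0.22 at day 5 (adjusted p = 0.406) and 0.21 at day 3 (adjusted p = 0.518), and Ppil1 at -0.24 at day 5 (adjusted p = 0.153) and 0.19 at day 3 (adjusted p = 0.375).

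RefSeq gives 2 starts for Cdkn1a, and both windows are shown. They were picked after p53 and most of its listed targets were seen to be lower, as given below. A part of p53 in the lower level of Cdkn1a was not tested. Capitals mark the same motifs as above.
Cdkn1a upstream start, chr17:29090729-29091028, plus strand: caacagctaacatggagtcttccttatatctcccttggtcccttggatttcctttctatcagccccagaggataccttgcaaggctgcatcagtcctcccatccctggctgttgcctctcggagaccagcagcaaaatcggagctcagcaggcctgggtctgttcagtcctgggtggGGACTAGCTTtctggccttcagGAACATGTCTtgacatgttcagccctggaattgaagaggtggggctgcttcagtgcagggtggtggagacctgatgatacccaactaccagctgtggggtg
Cdkn1a downstream start, chr17:29093519-29093818, plus strand: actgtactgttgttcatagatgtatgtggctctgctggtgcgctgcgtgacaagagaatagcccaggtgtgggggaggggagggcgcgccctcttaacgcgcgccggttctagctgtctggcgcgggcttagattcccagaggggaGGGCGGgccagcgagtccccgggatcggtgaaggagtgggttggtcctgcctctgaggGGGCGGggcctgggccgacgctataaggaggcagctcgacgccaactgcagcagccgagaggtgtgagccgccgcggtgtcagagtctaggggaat
The upstream window held 2 matches to the p53 half-site, at 73 and 51 bases before the start, and no GC box. The downstream window held 2 GC boxes and no p53 half-site. A p53 half-site was also found in the Cdkn2d window, at 102 bases before the start, and in no other window of the members.

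Cdkn1b encodes p27, a CIP/KIP protein controlled largely by its degradation (chromosome 6, 134920401 to 134925525, plus strand). It had 56.9, 56.7, 67.3 and 69.4 CPM in KO at day 5, against 52.8, 48.1, 43.2 and 59.9 CPM in control, and the groups overlapped. At day 3 it had 78.7, 78.0 and 74.6 CPM in KO, against 65.8, 50.8 and 61.1 CPM in control, without overlap. It was called higher at day 5 (0.29 ± 0.106, adjusted p = 0.0319, edgeR's quasi-likelihood test; exact permutation p = 0.0857 of 70 labelings) and at day 3 (0.38 ± 0.125, adjusted p = 0.0196; exact permutation p = 0.1 of 20 labelings). Of the calls between genotypes these were lost most often when 1 library was left out. With sex as a covariate they were lost at day 5 (0.21, adjusted p = 0.116) and at day 3 (0.29, adjusted p = 0.0755). The day 5 call was also lost without KO replicate 3 (adjusted p = 0.0868) or 4 (0.0964) or control replicate 2 (0.0866) or 3 (0.0992), and the day 3 call without KO replicate 2 (0.0567) or control replicate 2 (0.0978). At day 5 the fold change was 0.22 among females (1 KO library against 3 controls) and 0.10 among males (3 KO libraries against 1 control), and with 1 library on a side these values do not bear on the call. Of its neighbours, 2810454H06Rik was called higher in KO at day 3 (1.95, adjusted p = 0.0325, on 1 to 25 counts per library) and not at day 5 (0.71, adjusted p = 0.182), and Lockd was not called (0.01 at day 5 and 0.37 at day 3).

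Cdkn1c encodes p57, the imprinted CIP/KIP gene, expressed from the maternal allele and known as a brake on fetal growth (chromosome 7, 143458339 to 143461059, minus strand). It had 52.9, 44.6, 40.5 and 29.9 CPM in KO at day 5, against 45.2, 48.7, 50.8 and 22.5 CPM in control, and 112, 155 and 177 CPM in KO at day 3, against 121, 140 and 139 CPM in control. The genotypes overlapped at both days, with log2 fold changes of 0.01 ± 0.243 at day 5 (adjusted p = 0.967, 95% interval -0.51 to 0.54) and 0.14 ± 0.275 at day 3 (adjusted p = 0.694, 95% interval -0.46 to 0.74), so that differences within these intervals were not detectable. Between the days it fell by 1.81 in KO (-1.81 ± 0.259, adjusted p = 0.000896, edgeR's quasi-likelihood test) and by 1.68 in control (-1.68 ± 0.259, adjusted p = 0.000308). The day 5 libraries did not overlap the day 3 libraries in either genotype (exact permutation p = 0.0286, the lowest possible with 35 labelings, in each). These permutations ignore that most embryos gave libraries at both days. With embryo as a block, edgeR's quasi-likelihood test gave -1.94 in KO (adjusted p = 0.00268) and -1.50 in control (adjusted p = 0.00523).

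**Figure D4:**
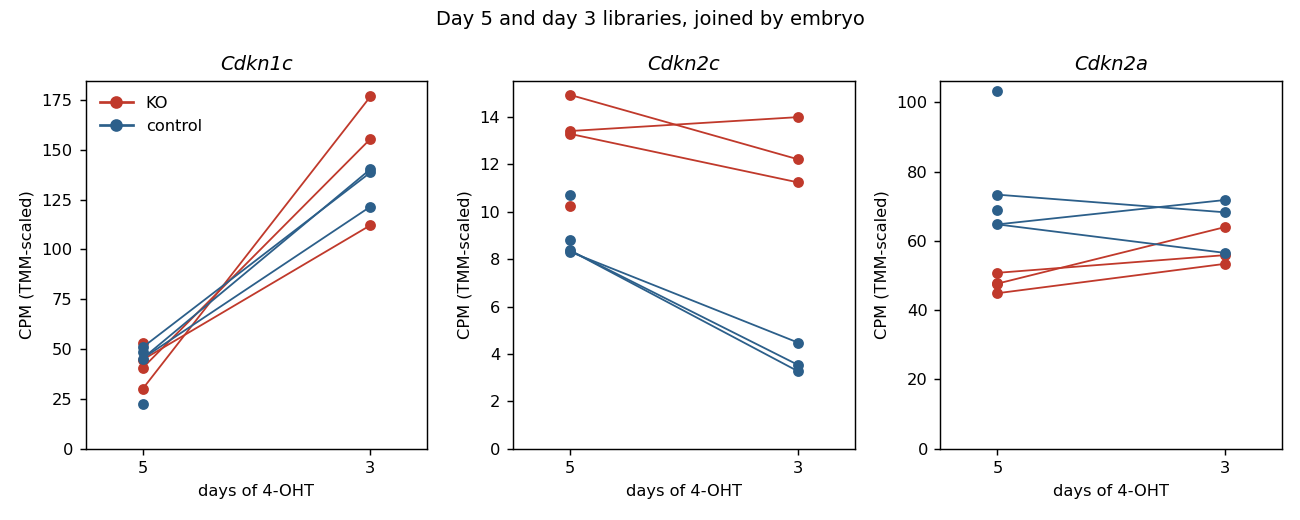
Levels of Cdkn1c, Cdkn2c and Cdkn2a in CPM at day 5 (left of each panel) and day 3 (right), with the libraries of the same embryo joined by lines (KO red, control blue). Every joined embryo has less Cdkn1c at day 5, every joined control embryo has more Cdkn2c at day 5, and every joined KO embryo has less Cdkn2a at day 5.

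Of the other members, Cdkn2d was also higher at day 5 than at day 3 in control cells (0.40 ± 0.133, adjusted p = 0.0264), a call lost with embryo as a block (0.44, adjusted p = 0.0843). In KO cells it differed by 0.13 ± 0.137 between the days, with an adjusted p of 0.927 set by the Poisson bound. Cdkn1c was thus the only member called between the days in KO, where 12.0% of all genes were called (4.98% higher and 7.06% lower), and Cdkn1c, Cdkn2c and Cdkn2d were called in control, where 38.3% were (18.3% higher and 19.9% lower). In KO all day 5 libraries also lay below all day 3 libraries for Cdkn2a (-0.27 ± 0.141, adjusted p = 0.242) and Cdkn1b (-0.30 ± 0.115, adjusted p = 0.108), so 3 of 7 members did not overlap there, against 26.9% of all genes. In control the 3 members called were also the 3 that did not overlap, against 42.7% of all genes.

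The gene lists of the pathway place these changes beside the kinases they act on. Cdk4, the kinase INK4 proteins bind, was lower in KO at both days (-0.74 ± 0.0658, adjusted p = 1.02e-06, at day 5 and -0.73 ± 0.0765, adjusted p = 4.32e-06, at day 3). Cdk6 was lower at day 5 (-0.71 ± 0.163, adjusted p = 0.00225) and not called at day 3 (-0.40 ± 0.195, adjusted p = 0.0971). Cdk2, the main partner of CIP/KIP proteins, was lower by less (-0.29 at day 5, adjusted p = 0.0125, and -0.37 at day 3, adjusted p = 0.0104). Among 15 tested cyclins and CDKs 0 rose and 9 fell at day 5 (median -0.32), while 6 rose and 4 fell at day 3 (median 0.22). Of all genes 26.3% rose and 26.2% fell at day 5, and 24.6% rose and 26.2% fell at day 3. The KO effect was lower at day 5 than at day 3 for 6 of the 15, against 7.15% of all genes. Among the 6 were the cyclin genes Ccnd1 (-0.18 at day 5, not called, and 0.58 at day 3), Ccnd3 (-0.37 at day 5 and 0.40 at day 3) and Ccne1 (-0.52 at day 5 and 0.44 at day 3).

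Of 16 genes expressed in proliferating cells, 0 rose and 5 fell at day 5 (median -0.29), and 8 rose and 1 fell at day 3 (median 0.59). Among all genes 26.3% rose and 26.2% fell at day 5, and 24.6% rose and 26.2% fell at day 3. The proliferation marker Mki67 was at -0.46 ± 0.150 at day 5 (adjusted p = 0.0199) and 0.55 ± 0.180 at day 3 (adjusted p = 0.0213), while Plk1, a kinase of mitosis, was at -0.51 ± 0.117 at day 5 (adjusted p = 0.00238) and 0.88 ± 0.157 at day 3 (adjusted p = 0.000387). The helicase gene Mcm2 was lower at both days (-0.76 at day 5 and -1.19 at day 3). Between the days, 15 of the 16 rose in control cells, where 18.3% of all genes were higher, and 9 in KO cells, where 4.98% were. The share of cycling cells was not measured, and its part in the changes of the inhibitors was not tested.

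Of 13 pocket protein and E2F genes, 4 rose and 5 fell at day 5 (median -0.08), and 6 rose and 1 fell at day 3 (median 0.20). The background over all genes was 26.3% higher and 26.2% lower at day 5, and 24.6% and 26.2% at day 3. Rb1, which encodes the retinoblastoma protein, was higher at both days (0.39 ± 0.096, adjusted p = 0.00356, at day 5 and 0.40 ± 0.115, adjusted p = 0.00951, at day 3), and Tfdp2, a dimerization partner of E2F factors, was higher as well (0.74 at day 5 and 0.44 at day 3). E2f1 was not called at either day (-0.08 at day 5 and -0.01 at day 3), and E2f3 was lower at both (-0.44 at day 5 and -0.58 at day 3).

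Most genes of the p53 list were lower in KO cells, as Cdkn1a was. Of 22 genes, p53 itself and known targets other than Cdkn1a, 2 rose and 13 fell at day 5 and 3 rose and 14 fell at day 3, with median log2 fold changes of -0.37 at day 5 and -0.45 at day 3. Over all genes 26.2% were lower at each day, and 26.3% were higher at day 5 and 24.6% at day 3. Trp53, which encodes p53, was lower (-0.67 ± 0.0849, adjusted p = 1.85e-05, at day 5 and -0.75 ± 0.101, adjusted p = 3.50e-05, at day 3). Mdm2, the ubiquitin ligase of p53 and the protein p19Arf binds, was at -0.36 ± 0.113 at day 5 (adjusted p = 0.0157) and -0.77 ± 0.132 at day 3 (adjusted p = 0.000292). The nuclease gene Aen (-0.74 at day 5 and -0.63 at day 3) and the polymerase gene Polk (-0.29 at day 5 and -0.63 at day 3) were lower as well. The death receptor gene Fas went the other way, at 0.48 ± 0.167 at day 5 (adjusted p = 0.0245) and 1.98 ± 0.222 at day 3 (adjusted p = 7.66e-06).

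Regulators of the Cdkn2a and Cdkn2b locus changed in both directions, with 10 of 25 higher and 4 lower at day 5 (median 0.19) and 5 higher and 6 lower at day 3 (median -0.07). Over all genes 26.3% were higher and 26.2% lower at day 5, and 24.6% and 26.2% at day 3. Calls in either direction were about as frequent as over all genes (52.5% at day 5 and 50.9% at day 3). Bmi1, the Polycomb protein known to silence Cdkn2a, was slightly lower (-0.33 ± 0.0859, adjusted p = 0.00513, at day 5 and -0.30 ± 0.102, adjusted p = 0.0222, at day 3), and Ezh2 was not called (0.19 at day 5 and 0.27 at day 3). Kdm6b, a demethylase that removes the Polycomb mark, was lower (-0.82 at day 5, adjusted p = 2.41e-06, and -0.88 at day 3, adjusted p = 5.72e-06). Tbx3 and Tbx2, repressors of the Arf promoter, were higher, Tbx3 at 0.78 at day 5 (adjusted p = 3.19e-05) and 0.74 at day 3 (adjusted p = 0.000287), and Tbx2 at 0.86 at day 5 and 0.92 at day 3. Id1, in human cells an antagonist of Ets factors at the p16 promoter, was also higher (0.69 at day 5 and 1.61 at day 3), and Ets1 was lower (-0.43 at day 5 and -0.44 at day 3). Ring1, a subunit of the same Polycomb complex as Bmi1, was higher (1.05 ± 0.155, adjusted p = 7.23e-05, at day 5 and 0.55 ± 0.185, adjusted p = 0.0227, at day 3).

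Among 24 Myc, TGF-beta and FOXO genes, 10 rose and 5 fell at day 5 (median 0.12), and 9 rose and 8 fell at day 3 (median 0.02). The shares over all genes were 26.3% higher and 26.2% lower at day 5, and 24.6% and 26.2% at day 3. Of the TGF-beta pathway, through which Cdkn2b can be induced, the effector gene Smad3 (0.67 at day 5, adjusted p = 1.32e-06, and 0.45 at day 3, adjusted p = 0.000165) and the receptor gene Tgfbr2 (0.57 at day 5 and 0.91 at day 3) were higher, and the ligand gene Tgfb1 was lower (-0.48 at day 5 and -1.29 at day 3). Myc, a repressor of Cdkn2b and Cdkn1a, was higher at day 5 (0.52 ± 0.110, adjusted p = 0.00126) and not called at day 3 (-0.31 ± 0.127, adjusted p = 0.0531). Klf4, an activator of Cdkn1a, was lower at day 3 (-1.03 ± 0.0864, adjusted p = 6.38e-07) and not called at day 5 (-0.04 ± 0.0737, adjusted p = 0.682). Foxo1, of the family that activates Cdkn1b, was higher (0.73 at day 5 and 1.26 at day 3).

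Of 13 genes for the turnover of p27 and p21, 3 rose and 5 fell at day 5 (median -0.17), and 3 rose and 3 fell at day 3 (median 0.17). All genes gave 26.3% higher and 26.2% lower at day 5, and 24.6% and 26.2% at day 3. Skp2, the receptor subunit of the ligase that degrades p27, was not called (-0.26 ± 0.126, adjusted p = 0.0954, at day 5 and 0.27 ± 0.157, adjusted p = 0.164, at day 3), and its cofactor gene Cks1b was lower (-0.48 at day 5 and -0.54 at day 3). Rnf123, a ubiquitin ligase for p27 in the cytoplasm, was higher at day 5 (0.66 ± 0.0633, adjusted p = 1.73e-06) and not called at day 3 (0.17, adjusted p = 0.0791). Protein levels were not measured here.

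Of 8 tested genes of the imprinted domain around Cdkn1c and its regulator Plagl1, 2 rose and 3 fell at day 5 (median -0.09), and 1 rose and 1 fell at day 3 (median 0.004). Against these counts stand 26.3% of all genes higher and 26.2% lower at day 5, and 24.6% and 26.2% at day 3. Plagl1, a transcription factor known to activate Cdkn1c, was higher in KO (1.50 ± 0.139, adjusted p = 1.78e-06, at day 5 and 0.97 ± 0.158, adjusted p = 0.000210, at day 3), while Cdkn1c was not called. Kcnq1ot1, the noncoding RNA that silences the domain on the paternal chromosome, was at 0.66 at day 5 (adjusted p = 0.0476) and -0.10 at day 3 (adjusted p = 0.810). It is the nearest tested gene on one side of Cdkn1c, and Slc22a18 on the other side was not called (0.60 at day 5, adjusted p = 0.210, and 0.72 at day 3, adjusted p = 0.219). Phlda2, an imprinted growth regulator of the same domain, was lower at day 3 (-3.05 ± 0.574, adjusted p = 0.000560), on low levels of 0 to 0.201 CPM in KO and 0.799 to 1.31 CPM in control.

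**Figure D5:**
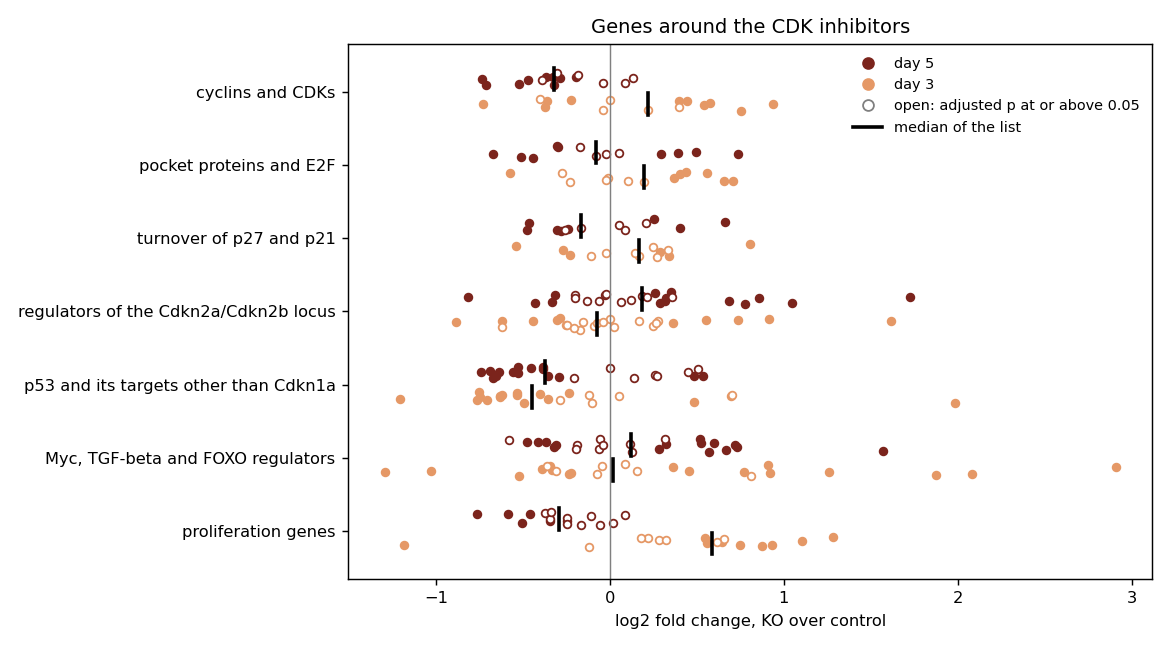
Log2 fold change of KO over control for each tested gene of 7 lists around the CDK inhibitors, at day 5 (dark, upper row) and day 3 (light, lower row); open points had an adjusted p at or above 0.05 in edgeR's quasi-likelihood test and black bars are medians. The p53 list has medians of -0.37 at day 5 and -0.45 at day 3, and the proliferation list has medians of -0.29 at day 5 and 0.59 at day 3.

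For each member the genes most like it in pattern were taken by Pearson's r of log2 CPM over the 14 libraries, among 11895 genes with a mean of at least 2 CPM. Il10rb (r = 0.986) was closest to Cdkn1a, Hif1an (r = 0.983) to Cdkn2b, Ccn5 (r = 0.980) to Cdkn2c, Rnf152 (r = 0.977) to Cdkn1c, Snrpb (r = 0.956) to Cdkn2d, Cavin4 (r = 0.940) to Cdkn1b and Rab31 (r = 0.935) to Cdkn2a. The next were Prr5 and Mapk3 for Cdkn1a, Pex7 and Pigv for Cdkn2b, Bace1 and Thbs1 for Cdkn2c, Selenbp1 and Adipor2 for Cdkn1c, Prpf19 and Adsl for Cdkn2d, Gprc5c and Smurf2 for Cdkn1b, and Shc1 and Tmem160 for Cdkn2a, with r between 0.889 and 0.983. With the group means removed the 7 closest values were 0.887, 0.840, 0.855, 0.854, 0.847, 0.819 and 0.813 in the same order. They are descriptions: the 14 libraries share 4 groups and their depth, and a best match out of so many genes is high by selection.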

How the data were processed

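Gene expression was measured by stranded poly(A) RNA-seq in 14 MEF libraries. The authors deposited, per the file headers, a raw count and a gene length for each gene identifier of each library, and per the submitters' processing notes featureCounts and the mm10 genome were used. The sources used here name no aligner, annotation release or strand setting. Of 27179 lines per file, 909 without an identifier (0.194% to 0.315% of counts) were left out, as were 112 genes of the Y chromosome and X inactivation, since the sexes are unequal.

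In R 4.3.3, edgeR 4.0.16 kept 14327 genes by filterByExpr, scaled libraries by TMM and fitted counts of the 14 libraries by robust quasi-likelihood, each group having its own mean. P-values were Benjamini-Hochberg adjusted over those genes. Standard errors come from the quasi-likelihood F statistic. TPM used the deposited gene lengths, and log2 CPM a prior count of 2. The script was checked on simulated counts. DESeq2 1.42.0 and the voom method of limma 3.58.1 were alternatives. Embryo labels pair the days within a genotype (deviations from group means had r of -0.06, -0.05 and 0.25 for the KO pairs; control pairs gave 0.03, 0.12 and -0.06), and numbers pair nothing between genotypes. Libraries within a group differed beyond sampling noise (chi-square per degree of freedom 3.18 to 75.3).

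The members and gene lists were chosen with earlier results of these data known. Every inhibitor is named, with a fixed set of regulators, up to 4 called genes of smallest adjusted p per list, neighbouring genes and the most similar genes. Cdk2, Mki67, Tbx2, Ets1, Foxo1 and Cks1b were chosen after their values were seen. Promoters come from RefSeq (GRCm38.p6), which matched 6 of 7 members. Cdkn1c was not among them.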

Additional observations from a re-analysis of the deposited data

Results flagged for a closer look

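The KO effect on Cdkn2c differed between the days by -1.21 on the log2 scale (day 5 minus day 3; adjusted p = 0.00419, edgeR's quasi-likelihood test), with 0.51 at day 5 and 1.73 at day 3. Leaving out any single library gave -1.36 to -1.11. By Dixon's test no library was an outlier for a single inhibitor in the 14 groups of 4 (7 genes in KO and in control at day 5). Control day 5 replicate 4, which stood apart over all genes, still had the lowest Cdkn1c (22.5 CPM against 45.2 to 50.8) and the highest Cdkn2a (103 CPM against 64.8 to 73.3) of its group. Groups of 3 were not tested.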

How the results depend on the processing

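The KO effects on Cdkn1a and Cdkn2b at both days, and on Cdkn2c at day 3, kept their direction and their call under every alternative in which they were refitted, apart from a test against a 1.5-fold change (glmTreat). That test left 1 inhibitor at day 5 and 1 at day 3, 0 for the difference between the effects, and 1710, 2279, 167, 138 and 1141 genes for KO at day 5, KO at day 3, their difference, the days in KO and the days in control. Depth limits Cdkn2c and Cdkn2d most, with as few as 26 and 18 counts in KO day 3 replicate 3. Another choice moved all genes together: upper-quartile scaling raised the median of all genes to 0.14 at day 5 and 0.12 at day 3 and the share of called genes that were higher to 64.4% and 62.1% (50.1% and 48.4% with TMM), and library totals gave 68.1% for the difference between the effects (50.02% with TMM) and 72.8% for the days in KO (41.3% with TMM), with a median of 0.13 there.

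With the replicate number as a block, Cdkn2b was also called for the difference between the effects (0.36, adjusted p = 0.0450) and between the days in control (-0.22, adjusted p = 0.0389), so 2 and 4 inhibitors were called there, and no other member changed its call. The fits of one sex alone, and those without the 2 unusual libraries (KO day 3 replicate 3 and control day 5 replicate 4), were chosen after seeing the data. With sex as a covariate 2 were called for the difference (Cdkn2a and Cdkn2c). Male libraries alone (3 KO, 1 control) gave 3631 genes and 3 inhibitors at day 5, and females alone (1 KO library a day) gave 565 genes between the days in KO. A lone library is there assumed to vary like the other groups. Leaving out 1 library gave 1275 (without control day 3 replicate 3) to 2745 genes and 1 to 2 inhibitors for the difference (2 without control day 3 replicate 1, with Cdkn2b at 0.39), 1024 to 1602 genes for the days in KO (1024 without KO day 3 replicate 4, 1106 and 1108 without KO day 5 replicate 3 and 4), and 2 to 5 inhibitors for the days in control, with 5 without day 5 replicate 4, where Cdkn2b (-0.25) and Cdkn1b (-0.29) were called. Cdkn2b there was also called without control day 3 replicate 1 (-0.30), with that embryo's libraries summed (-0.23) and without the 2 unusual libraries (-0.25), and Cdkn1b in females (-0.28). Cdkn2d there was lost without control day 3 replicate 1 or 3 or day 5 replicate 1 or 2 (adjusted p 0.0585 to 0.110).

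Each sign change listed next was of a value called neither here nor in that alternative. The Cdkn1c effect at day 5 was -0.0026 with DESeq2, -0.113 in females and -0.189 without the 2 unusual libraries, and -0.192 to 0.146 without 1 library. At day 3 it was -0.232 in females and -0.0140 to 0.320 without 1 library, and its difference was 0.119 in females and -0.330 to 0.0314 without 1 library. The Cdkn1b difference was 0.00403 with library totals, 0.0158 with embryo as a replicate block and -0.174 to 0.00835 without 1 library. Cdkn2d was 0.0311 in females at day 3 and -0.189 in females between the days in KO. Between the days in KO, Cdkn2c was -0.0754 in males and -0.0433 to 0.158 without 1 library, and with library totals Cdkn1a was 0.0428 and Kat5 0.0022. The Kat5 difference was 0.0324 with library totals and -0.132 to 0.00401 without 1 library. The cause of these changes was not tested.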
